A study of Homo sapiens with 6 samples.

Results

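The genes described here carry out MHC class I antigen presentation in SKOV3 cells, an established line from a human ovarian carcinoma. They are the 9 genes HLA-B, HLA-C, HLA-E, B2M, TAP1, TAP2, PSMB8, PSMB9 and NLRC5, found by their Ensembl IDs among the 60664 genes of the deposited table. Each of the 9 was present once and passed the filter on low counts. RNA sequencing covered 6 libraries. The shJUP group (3 libraries) carried a short hairpin RNA against JUP, the gene of the junction protein plakoglobin. The shNC group (3 libraries) carried a control hairpin, and its genotype is given as WT for JUP. The labels call the replicates biologically independent and number them 1 to 3 in each group, without saying what a number stands for. They do not say how many hairpin sequences were used or whether the cells were clones, so effects of the hairpin itself and of lower JUP cannot be told apart.

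Class I molecules show short peptides from inside the cell to CD8+ T cells and to natural killer cells. Proteasomes cut the peptides, and in the immunoproteasome PSMB8, PSMB9 and PSMB10 take the place of the constitutive catalytic subunits PSMB5, PSMB6 and PSMB7. The transporter subunits TAP1 and TAP2 move the peptides into the endoplasmic reticulum. There they are trimmed and loaded onto a heavy chain (HLA-B, HLA-C or HLA-E among others) paired with the light chain B2M. NLRC5 is a transactivator that works with the RFX, CREB/ATF and NF-Y factors on the conserved upstream boxes of class I promoters, and interferon raises most of these genes. Many carcinomas show reduced class I expression.

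The stretches below come from the members whose searched windows held the letters marked here in capitals. They are the 200 bases before the start of 5 of the genes, from RefSeq's promoters on GRCh38.p14. Whether the marked letters bear on how the genes varied across the libraries was not tested. Of the 9 members, 7 had an entry, and HLA-E and NLRC5 had none. Capitals mark TTTCNNTT on either strand, the core of an interferon-stimulated response element. They also mark TGACG followed on the same strand, 15 to 25 bases after its end, by ATTGG, an arrangement of a CREB/ATF half-site and an inverted CCAAT box.
HLA-B, chr6:31357180-31357379, minus strand: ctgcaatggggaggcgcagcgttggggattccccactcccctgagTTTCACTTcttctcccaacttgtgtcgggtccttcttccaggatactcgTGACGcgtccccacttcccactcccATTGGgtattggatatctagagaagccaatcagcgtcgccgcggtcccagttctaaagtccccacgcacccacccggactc
HLA-C, chr6:31272093-31272292, minus strand: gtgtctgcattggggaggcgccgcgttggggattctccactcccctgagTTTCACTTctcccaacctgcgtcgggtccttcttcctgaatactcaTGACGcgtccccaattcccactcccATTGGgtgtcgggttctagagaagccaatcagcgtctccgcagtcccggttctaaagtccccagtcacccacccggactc
B2M, chr15:44711317-44711516, plus strand: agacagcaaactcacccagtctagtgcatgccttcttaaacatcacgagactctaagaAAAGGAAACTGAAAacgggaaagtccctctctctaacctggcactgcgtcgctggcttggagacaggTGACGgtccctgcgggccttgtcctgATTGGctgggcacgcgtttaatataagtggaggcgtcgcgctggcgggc
TAP1, chr6:32853705-32853904, minus strand: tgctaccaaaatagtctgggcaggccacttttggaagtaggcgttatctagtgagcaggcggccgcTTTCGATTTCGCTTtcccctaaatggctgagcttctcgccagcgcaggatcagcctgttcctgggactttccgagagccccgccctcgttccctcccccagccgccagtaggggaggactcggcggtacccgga
TAP2, chr6:32838740-32838939, minus strand: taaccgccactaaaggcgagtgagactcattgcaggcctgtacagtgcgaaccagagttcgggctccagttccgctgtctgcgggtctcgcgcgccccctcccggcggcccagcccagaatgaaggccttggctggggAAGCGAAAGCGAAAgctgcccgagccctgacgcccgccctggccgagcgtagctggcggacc

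The paired arrangement was present in HLA-B, HLA-C and B2M. The gap between its boxes was 20 bases in HLA-B, 20 in HLA-C and 21 in B2M. Among 35116 RefSeq promoter windows searched over the 250 bases before the start, 0.407% held it. It was not found in the searched windows of TAP1, TAP2, PSMB8 or PSMB9. TTTCNNTT was present in HLA-B, HLA-C, B2M, TAP1 and TAP2, as in 20.3% of all windows, and not in those of PSMB8 or PSMB9. A further window of TAP1 (chr6:32852712-32853011), not printed, held no match. These matches describe letters in a window and were not tested for binding. Since no source used here names the build behind the counts, the coordinates are those of RefSeq only.

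Library totals ranged from 17456121 to 19279514 estimated counts. Levels below are CPM, the count relative to the library total after edgeR's TMM scaling. JUP (ENSG00000173801) measured 39.9, 93.6 and 24.6 CPM in the shJUP libraries 1, 2 and 3, against 104, 133 and 101 CPM in the shNC libraries. Each shJUP library was below each control, and shJUP 2 kept the most JUP. In edgeR's quasi-likelihood test it missed the threshold, with a log2 fold change of -1.10 (SE 0.44, adjusted p = 0.47). DESeq2 with the library number as a block called JUP lower (adjusted p = 0.047), and so it did without both number-2 libraries (log2 -1.7, adjusted p = 2.4e-10) or number-3 libraries (-0.93, adjusted p = 0.017), but not without both number-1 libraries (-1.27, adjusted p = 0.66).

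The class I heavy chains lay lower in shJUP than in the control of the same number in each of the 3 pairs, but the groups overlapped. HLA-B, a classical heavy chain (ENSG00000234745), measured 75.4, 177 and 86.7 CPM in the shJUP libraries 1, 2 and 3, against 85.8, 299 and 140 CPM in the shNC libraries 1, 2 and 3. The library shNC 2 was the highest, and shJUP 2 exceeded both other controls. The means were 113 ± 55.9 against 175 ± 111 CPM (SD, n = 3 each), with a log2 fold change of -0.63 (SE 0.49). HLA-C, the other classical member (ENSG00000204525), was at 99.6, 192 and 114 CPM in shJUP and 114, 283 and 172 CPM in shNC. The order of the libraries was close to that of HLA-B, with both number-2 libraries on top. Its log2 fold change was -0.49 (SE 0.37). HLA-E, a non-classical chain read by natural killer receptors (ENSG00000204592), was at 128, 250 and 136 CPM in shJUP and 155, 337 and 193 CPM in shNC. Its log2 fold change was -0.41 (SE 0.35), again with shJUP 2 above shNC 1 and shNC 3. In bulk RNA, fewer cells with high class I and less class I RNA per cell cannot be told apart.

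B2M, the light chain that all class I heavy chains share (ENSG00000166710), had the highest level of the 9 genes. Its level was 462, 935 and 646 CPM in the shJUP libraries, against 647, 1251 and 796 CPM in the shNC libraries. The libraries shJUP 3 and shNC 1 were nearly level, and shJUP 2 lay above shNC 1 and shNC 3. The means were 681 ± 239 against 898 ± 314 CPM (SD, n = 3 each), a log2 fold change of -0.40 (SE 0.31). B2M rested on 8278 to 23541 counts per library, so counting error was small beside the spread between libraries.

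**Figure D1:**
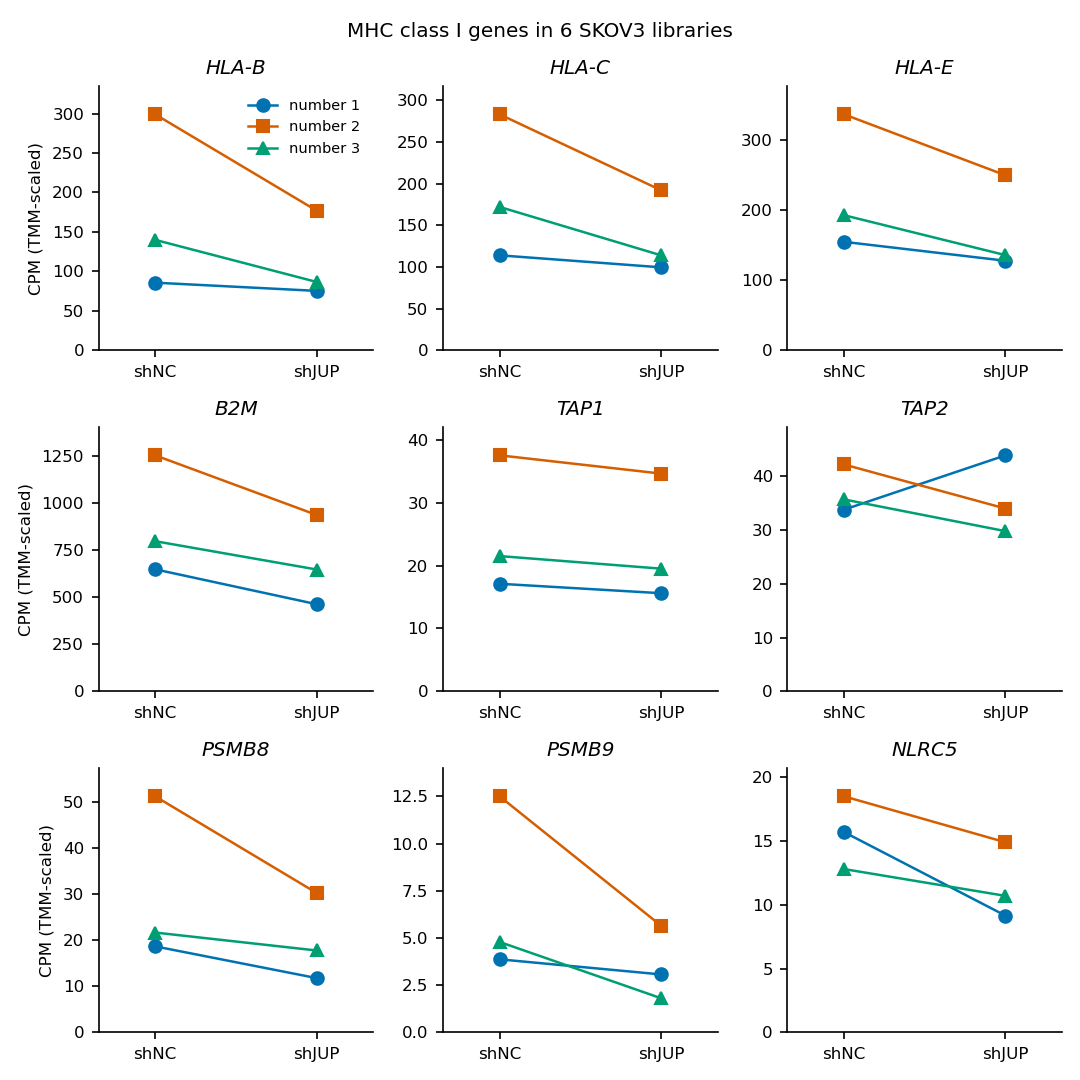
Levels of the 9 class I genes in CPM (linear axes from 0) in the control (shNC) and JUP hairpin (shJUP) libraries, with a line joining libraries of the same number. Lines slope down in every pair for 8 genes, and TAP2 slopes up in number 1. Squares (number 2) are the highest in both groups for all genes but TAP2.

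The transporter subunits behaved unlike each other. TAP1 (ENSG00000168394) was at 15.6, 34.6 and 19.5 CPM in shJUP and 17.1, 37.5 and 21.5 CPM in shNC. The same-number libraries were nearly level and number 2 was high in both groups, for a log2 fold change of -0.13 (SE 0.38). TAP2 (ENSG00000204267) was at 43.9, 34.0 and 29.8 CPM in shJUP and 33.8, 42.2 and 35.7 CPM in shNC. Its highest library was shJUP 1, where most of the other genes were lowest, and its log2 fold change was -0.05 (SE 0.17). TAP2 is uncertain: 31.3% of the 50-base words of its GENCODE 29 transcripts also occur in another annotated gene, mainly the overlapping AL669918.1. Reads may therefore have been split between TAP2 and AL669918.1. The counts assigned were 31 to 101 per library for AL669918.1 and 561 to 794 for TAP2.

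Of the immunoproteasome subunits, PSMB9 had the largest fold change of the 9 in edgeR, on low counts, and PSMB8 was close to HLA-B. PSMB8 (ENSG00000204264) measured 11.8, 30.3 and 17.8 CPM in the shJUP libraries, against 18.7, 51.3 and 21.7 CPM in the shNC libraries. Its log2 fold change was -0.61 (SE 0.46), with shJUP 2 above shNC 1 and shNC 3. PSMB9 (ENSG00000240065) was at 3.07, 5.65 and 1.81 CPM in shJUP and 3.87, 12.5 and 4.79 CPM in shNC, from 34 to 235 counts per library. The library shNC 2 stood far above the rest, and the log2 fold change was -1.0 (SE 0.56). PSMB8 and PSMB9 lie on opposite strands with overlapping exons in GENCODE 29, as does the antisense RNA PSMB8-AS1 with PSMB8. PSMB8-AS1 (23 to 70 counts per library) also overlaps PSMB9 on the same strand, where strand does not separate reads. PSMB9 shares 2.89% of its 50-base words with it. The strand setting of the counting is not given, so the reads of these 3 genes cannot be fully told apart.

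NLRC5, the class I transactivator (ENSG00000140853), was at 9.15, 14.9 and 10.7 CPM in shJUP and 15.7, 18.5 and 12.8 CPM in shNC. Only shJUP 2 reached into the range of the controls, above shNC 3. The log2 fold change was -0.43 (SE 0.23), and the number-2 libraries stood out less than for the class I chains.

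All 9 log2 fold changes lay below 0, with a median of -0.43, against -0.01 over the 15867 tested genes. None of the 9 passed in edgeR over all genes (adjusted p from 0.57 to 0.93). That test called 0 of the 15867 genes (0%). An unadjusted edgeR p under 0.05 was reached by 0 of the 9, against 4.87% of all tested genes in the lower direction. Without a block DESeq2 called 0 of the 9 and 1.26% of all genes, and limma-voom called 0 of the 9 and 0 of all tested genes. Without both number-2 libraries edgeR called 0 of the 9 and 0.308% of all genes, and DESeq2 called 0 of the 9 and 4.23%. No member separated the groups without overlap, against 8.65% of all tested genes that did so in the lower direction and 8.39% in the higher. The edgeR values rested much on shNC 2. Without it HLA-B (0.01), TAP1 (0.27) and TAP2 (0.05) were above 0, PSMB8 (-0.01), HLA-E (-0.02), HLA-C (-0.08) and B2M (-0.08) were close to it, and PSMB9 was at -0.30 and NLRC5 at -0.29. Without shJUP 2 they lay further below 0, such as -1.11 for HLA-B. TAP1 was also above 0 without shJUP 1 (0.10), and TAP2 without shJUP 3 (0.06) or both number-2 libraries (0.09). The number-2 libraries deviated together from their group means (r = 0.51 over the tested genes), so the fit was also made with the number as a block. For numbers 1 and 3 this r was 0.14 and 0.20, and shJUP 3 went more with shNC 1 (0.39). The pairing of these libraries therefore follows the numbers alone.

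Within numbers the picture was more even. Lower values in shJUP in all 3 same-number pairs were seen for 8 of the 9 genes, the exception being TAP2, against 22.5% of all tested genes. The members share regulators and the libraries are the same, so the 8 are not 8 separate observations. The count holds for the numbered pairing only. Across numbers, shJUP 3 was above shNC 1 for HLA-B (86.7 against 85.8 CPM) and TAP1 (19.5 against 17.1 CPM). For the other members shJUP 3 was below shNC 1 or level with it. With the block, DESeq2 called HLA-B (log2 -0.54, SE 0.15, adjusted p = 0.013), HLA-C (-0.45, SE 0.13, adjusted p = 0.023), HLA-E (-0.40, SE 0.12, adjusted p = 0.017) and B2M (-0.40, SE 0.10, adjusted p = 0.0058) lower. These 4 of 9 compare with 2.43% of all tested genes called lower in that fit, which called 0 of the 9 and 1.93% of all genes higher. The members were chosen with earlier results of these data known, so both comparisons with all genes are descriptions only. PSMB8 (adjusted p = 0.062), PSMB9 (0.13), NLRC5 (0.35), TAP1 (0.84) and TAP2 (0.95) did not pass in the blocked DESeq2 fit. The edgeR fit with the block called 0 of the 9 (adjusted p from 0.13 to 0.85) and 0.00630% of all genes. The calls depended on which pair was left out, in blocked DESeq2 fits added after the data were seen. Without both number-1 libraries 2 of the 4 remained called (HLA-B, adjusted p = 0.0030, and HLA-C, 0.036). Without both number-2 libraries, or without both number-3 libraries, 0 of the 4 did, while their log2 fold changes stayed below 0 (for B2M -0.36, -0.39 and -0.45 without number 1, 2 and 3). Calls over all genes, in either direction, also fell in these smaller fits. They numbered 692 with all pairs and 265, 263 and 175 without number 1, 2 and 3.

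**Figure D2:**
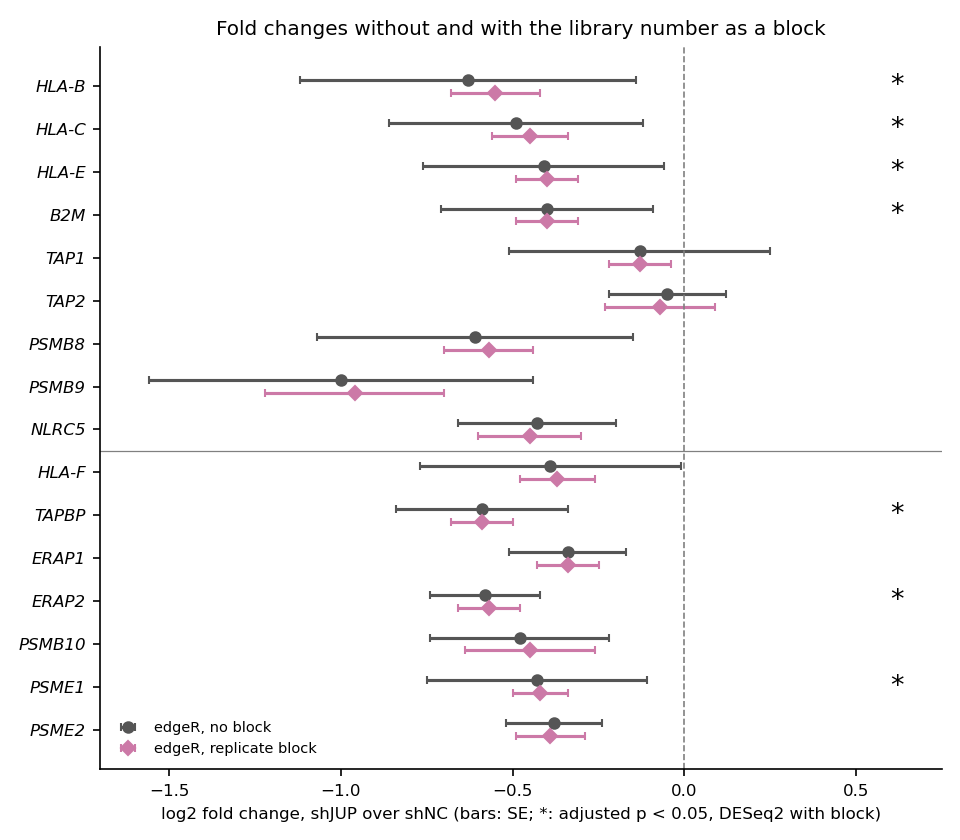
Log2 fold change of shJUP over shNC (x axis, 0 dashed) with its SE for the 9 genes and, under the line, 7 genes of the pathway, from edgeR without and with the library number as a block. For HLA-B the SE is 0.49 without and 0.13 with the block around fold changes of -0.63 and -0.55, and stars mark the 7 genes DESeq2 called with the block.

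The same-number ratios are given with intervals that cover counting error only. Each pair is 1 culture against 1, so whether the size of the difference varied between pairs was not tested. For HLA-B the shJUP level was 0.879 of the control (95% counting interval 0.816 to 0.946) in number 1, 0.593 (0.568 to 0.619) in number 2 and 0.621 (0.583 to 0.661) in number 3. HLA-C was at 0.871, 0.678 and 0.662, and HLA-E at 0.828, 0.742 and 0.702. All 3 heavy chains had their highest ratio in number 1. B2M had its highest in number 3, with a ratio of 0.714 (0.694 to 0.735) in number 1, 0.748 (0.733 to 0.763) in number 2 and 0.811 (0.792 to 0.831) in number 3. NLRC5 was at 0.583 (0.478 to 0.709), 0.806 (0.686 to 0.946) and 0.839 (0.692 to 1.02), with overlapping intervals in numbers 2 and 3. PSMB8 was at 0.633, 0.591 and 0.821, also highest in number 3. JUP itself was at 0.384, 0.705 and 0.243 of the same-number control, with the ratio nearest to 1 in number 2.

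**Figure D3:**
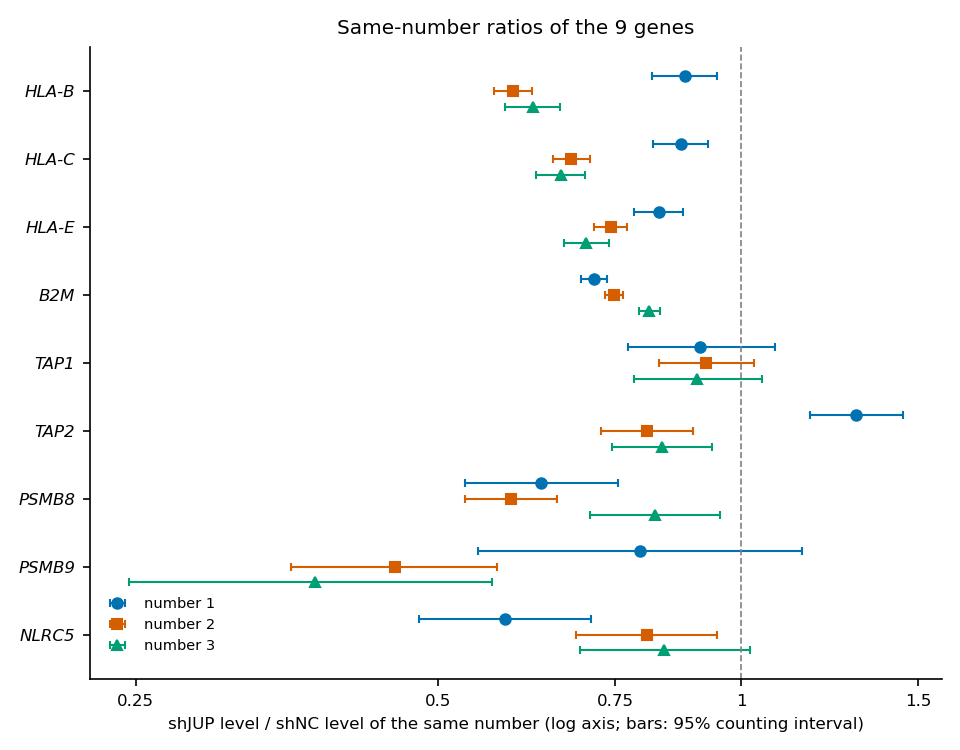
Ratio of the shJUP level to the shNC level of the same number (log axis, 1 dashed) for each gene, with exact 95% counting intervals that hold no biological spread. Apart from TAP2 in number 1 at 1.3, every ratio is below 1, and the intervals of TAP1 cross 1 in all pairs.

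For most of the 9 genes the number-2 libraries stood further from the others than the groups did from each other. In the controls, number 2 stood at 2.65 times the mean of numbers 1 and 3 for HLA-B, 1.98 for HLA-C, 1.93 for HLA-E and 1.73 for B2M. In shJUP the matching values were 2.19, 1.80, 1.89 and 1.69. TAP1 (1.94 in shNC and 1.98 in shJUP), PSMB8 (2.54 and 2.05) and PSMB9 (2.88 and 2.32) did the same. NLRC5 was at 1.3 and 1.5, and TAP2 at 1.21 and 0.922. At least 1.5-fold in both groups was reached by 7 of the 9 genes, against 6.91% of all tested genes. What differed between the cultures of number 2 and the others is not stated, and its part in the class I levels was not tested.

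Ratios within a library do not depend on the scaling between libraries, and 7 were compared. PSMB8 per PSMB5, the inducible over the constitutive subunit of the same position, was 0.163, 0.442 and 0.221 in shJUP 1, 2 and 3 and 0.243, 0.901 and 0.303 in shNC 1, 2 and 3. Each shJUP value was below its same-number control, though the groups overlapped. The difference in mean log2 was -0.69 (exact two-sided permutation test, p = 0.40, adjusted p = 0.70 over the 7 ratios). PSMB9 per PSMB6 was 0.0412, 0.0828 and 0.0189 against 0.0599, 0.244 and 0.0689, a difference of -1.32 (exact permutation p = 0.30, adjusted 0.70). PSMB10 per PSMB7 was 0.0436, 0.0378 and 0.0265 against 0.0507, 0.0883 and 0.0399, a difference of -0.68 (exact permutation p = 0.20, adjusted 0.70). All 3 inducible-to-constitutive ratios were lower in shJUP in all 3 pairs, while their groups overlapped. Without shNC 2 the differences were -0.11 for PSMB8 per PSMB5, -0.68 for PSMB9 per PSMB6 and -0.35 for PSMB10 per PSMB7. With 3 libraries against 3 the exact permutation test cannot go below p = 0.10 for any ratio, and it leaves the library numbers out.

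PSMB9 and TAP1 lie next to each other, head to head. Their ratio was 0.197, 0.163 and 0.0926 in shJUP and 0.227, 0.333 and 0.222 in shNC. This was the only one of the 7 ratios whose groups did not overlap. Its difference of -0.83 gave an exact permutation p of 0.10, the smallest that 3 libraries against 3 allow (adjusted 0.70). HLA-B plus HLA-C per B2M (difference in mean log2 -0.09) and TAP1 per TAP2 (-0.07) had exact permutation p-values of 0.80 and 1. HLA-E per B2M was 0.278, 0.267 and 0.210 in shJUP and 0.240, 0.269 and 0.243 in shNC, a span narrower than that of either gene alone (exact permutation p = 1).

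**Figure D4:**
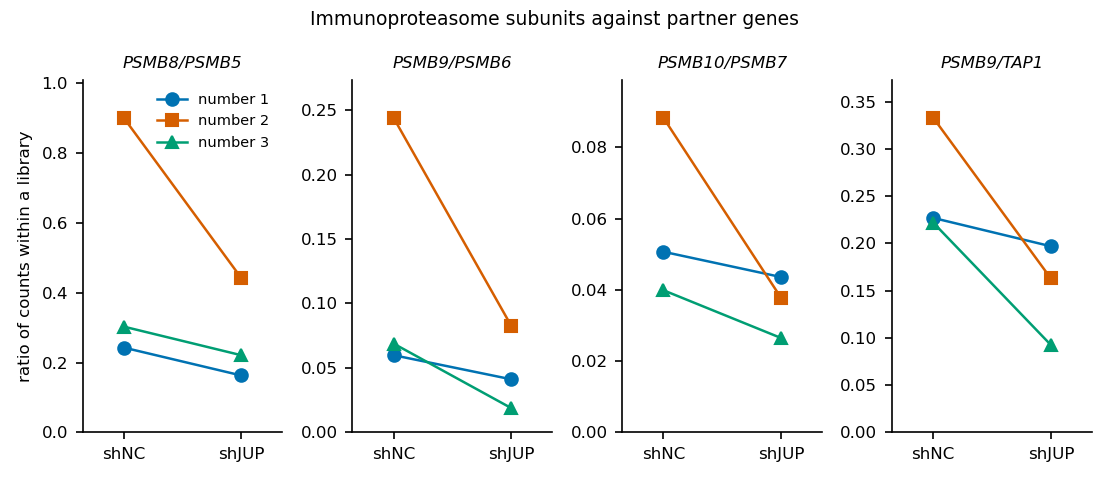
Ratios of counts within a library (linear axes from 0) for 3 inducible subunits over the constitutive subunits they replace and for PSMB9 over TAP1, with lines joining libraries of the same number. All lines slope down from shNC to shJUP, and shNC 2 is the highest library in each panel.

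Of the other non-classical heavy chains, HLA-F was at 20.8, 40.5 and 20.4 CPM in shJUP and 23.1, 54.0 and 29.7 CPM in shNC. Its number-2 libraries were again the highest, with a log2 fold change of -0.39 (SE 0.38, edgeR adjusted p = 0.75). HLA-G, usually found in trophoblast, was under the filter, with 2 to 12 counts in each library. Of the class I transcripts, HLA-C shared 5.38% of its 50-base words with another gene, HLA-E 4.34% and HLA-B 2.72%. HLA-B and HLA-C also overlap on the same strand in the annotation, where strand does not separate reads. The split of reads between these paralogs is therefore uncertain, by an amount that the shares do not give. The shares come from annotated transcripts, and the HLA alleles of these cells were not examined.

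Of 12 other class I and class I-like genes 9 were tested, and none passed in edgeR or DESeq2, with or without the block. Their median log2 fold change was -0.01, with 5 below 0 and 4 above. MR1, which presents vitamin B metabolites, was at 5.84 ± 1.36 against 9.17 ± 1.40 CPM (log2 -0.65, SE 0.23, edgeR adjusted p = 0.45). The stress ligands of the NKG2D receptor lay on both sides of 0. MICA was at 16.6 ± 3.02 against 11.8 ± 0.987 CPM (log2 0.50, SE 0.18, edgeR adjusted p = 0.45) and ULBP2 at 6.80 ± 0.394 against 4.55 ± 1.36 CPM (log2 0.58, SE 0.27, edgeR adjusted p = 0.53). MICB was at 0.16, ULBP3 at -0.01 and ULBP1 at -0.41 on the log2 scale, given here to complete these ligands after their values were seen.

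Among the 12 peptide loading and trimming genes, 8 lay below 0 and 4 above, with a median of -0.21. The blocked DESeq2 fit called 2 of them lower and 0 higher, against 2.43% and 1.93% of all tested genes. TAPBP encodes tapasin, which bridges TAP and the heavy chain. It was at 69.9, 104 and 63.5 CPM in shJUP and 98.4, 156 and 102 CPM in shNC (log2 -0.58 with the block, SE 0.12, DESeq2 adjusted p = 2.5e-04, against 0.32 without the block). ERAP2, an aminopeptidase that trims peptides in the endoplasmic reticulum, was at 138, 172 and 142 against 187, 267 and 223 CPM. Every shJUP library lay below every control (log2 -0.57 with the block, SE 0.12, DESeq2 adjusted p = 1.5e-04, against 0.077 without). The edgeR fit with the block called neither (adjusted p = 0.084 and 0.088). In the blocked DESeq2 fit both calls held without both number-1 libraries (TAPBP adjusted p = 0.032, ERAP2 0.011), and not without number 2 (0.12 and 0.10) or number 3 (0.25 and 0.18). ERAP1, the related aminopeptidase, was at 28.1 ± 5.18 against 35.5 ± 4.92 CPM (log2 -0.34, SE 0.17), and NPEPPS, a cytosolic aminopeptidase, at 222 ± 39.9 against 283 ± 14.8 CPM (log2 -0.34, SE 0.15). The general chaperone CALR was at 1243 ± 244 against 1142 ± 68.2 CPM (log2 0.12, SE 0.15).

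The proteasome genes were read in lists, and the difference between lists was not tested. All 14 genes listed as proteasome core lay above 0, with a median of 0.10 and a range of 0.02 to 0.36. None of them passed in edgeR or DESeq2. Only PSMB5, PSMB6 and PSMB7 among them are replaced in the immunoproteasome, and both forms contain the other core subunits. Of the 14, 8 were higher in shJUP in all 3 same-number pairs, against 21.3% of all tested genes. PSMB6 was at 79.5 ± 14.4 against 61.7 ± 9.54 CPM (log2 0.36, SE 0.17), PSMB7 at 231 ± 22.5 against 197 ± 21.1 CPM (0.23, SE 0.12) and PSMB5 at 73.8 ± 6.07 against 68.4 ± 10.3 CPM (0.11, SE 0.14). PSMA5, an alpha-ring subunit, was at 221 ± 18.2 against 182 ± 2.87 CPM (0.28, SE 0.10). Of 6 partners of the immunoproteasome 3 lay below 0 and 3 above. Those below were PSMB10 (8.18 ± 1.27 against 11.4 ± 3.71 CPM, log2 -0.48, SE 0.26) and both subunits of the PA28 activator. PSME1 was at 48.7, 92.1 and 57.1 CPM in shJUP and 66.6, 128 and 72.1 CPM in shNC. The blocked DESeq2 fit called PSME1 lower (log2 -0.42, SE 0.13, adjusted p = 0.028, against 0.67 without the block), and not with any 1 pair left out (adjusted p from 0.44 to 0.63). PSME2 was at 38.9 ± 5.51 against 50.7 ± 3.95 CPM (log2 -0.38, SE 0.14), with a blocked DESeq2 adjusted p of 0.14. Above 0 were POMP, an assembly chaperone (log2 0.34, SE 0.12), and the PA200 activator PSME4 (0.33, SE 0.12), neither of which passed.

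The factors that act on class I promoters, and the interferon signal to them, included genes near 0 and a few well below it. Of 22 genes of the enhanceosome and of interferon signalling to it, 16 lay below 0 and 6 above, with a median of -0.09. RFX5, the DNA-binding subunit of the RFX complex, was at 52.1 ± 5.07 against 55.1 ± 6.81 CPM (log2 -0.08, SE 0.13), and NFYA, of the CCAAT-binding complex, at 57.7 ± 4.54 against 48.8 ± 1.39 CPM (0.24, SE 0.10). IRF1, an activator of class I genes, was at 39.3 ± 4.26 against 39.7 ± 12.1 CPM, with a log2 fold change of -0.02 that turned to 0.02 with library totals as the only scaling. IRF2 was at 10.8, 21.1 and 9.66 CPM in shJUP and 20.2, 25.9 and 17.5 CPM in shNC (log2 -0.61, SE 0.32, DESeq2 adjusted p with the block 0.060). STAT2, of the type I interferon signalling path, was the only one of the 22 that the blocked DESeq2 fit called (log2 -0.50, adjusted p = 0.034), and in that fit it was not called with any 1 pair left out (adjusted p from 0.27 to 0.74). Over all tested genes the blocked DESeq2 fit called 2.43% lower and 1.93% higher. DESeq2 without a block and without both number-2 libraries called 2 of the 22 lower, IRF2 (log2 -0.87, adjusted p = 0.012) and STAT2 (-0.60, adjusted p = 0.014), and 0 higher. Of all genes tested in that last fit, 4.23% were called in either direction.

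Interferon-stimulated genes outside antigen presentation showed more than one library pattern. Of 23 tested genes 12 lay below 0 and 11 above, with a median of -0.06. Their median was -0.79 without both number-2 libraries, against -0.42 for the 9 class I genes, whose median over all libraries was -0.43. Without those libraries DESeq2 called 8 of the 23 lower and 0 higher, against 0 of the 9 class I genes. Of all genes tested in that fit, 4.23% were called in either direction. Among the 8 was OAS2 (log2 -1.63, adjusted p = 5.3e-04). IFIT1, an antiviral RNA-binding protein, was at 11.7, 52.8 and 12.1 CPM in shJUP and 16.7, 15.7 and 19.1 CPM in shNC, high in shJUP 2 alone. OAS2, a sensor of double-stranded RNA, was at 3.68, 37.0 and 7.01 against 14.3, 12.5 and 18.9 CPM. Others were high in both number-2 libraries, like the class I genes. IFITM3, an antiviral membrane protein, was at 113, 304 and 164 CPM in shJUP and 160, 464 and 200 CPM in shNC. GBP2, an interferon-gamma-induced GTPase, was at 0.558, 9.66 and 1.06 against 1.55, 22.3 and 2.83 CPM. The blocked DESeq2 fit called IFITM3 (log2 -0.46, adjusted p = 0.0063), GBP2 (-1.33, adjusted p = 0.0068), PARP9 (-0.70, adjusted p = 0.039) and its partner DTX3L (-0.67, adjusted p = 0.0015) lower, 4 of 23, and called 0 higher. Over all tested genes it called 2.43% lower and 1.93% higher. With a pair left out, PARP9 (adjusted p = 0.033) and DTX3L (0.035) were called without number 2 and not without number 1 or 3, and IFITM3 and GBP2 were called in none of these DESeq2 fits. That the class I genes followed one pattern more than the other was not tested.

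**Figure D5:**
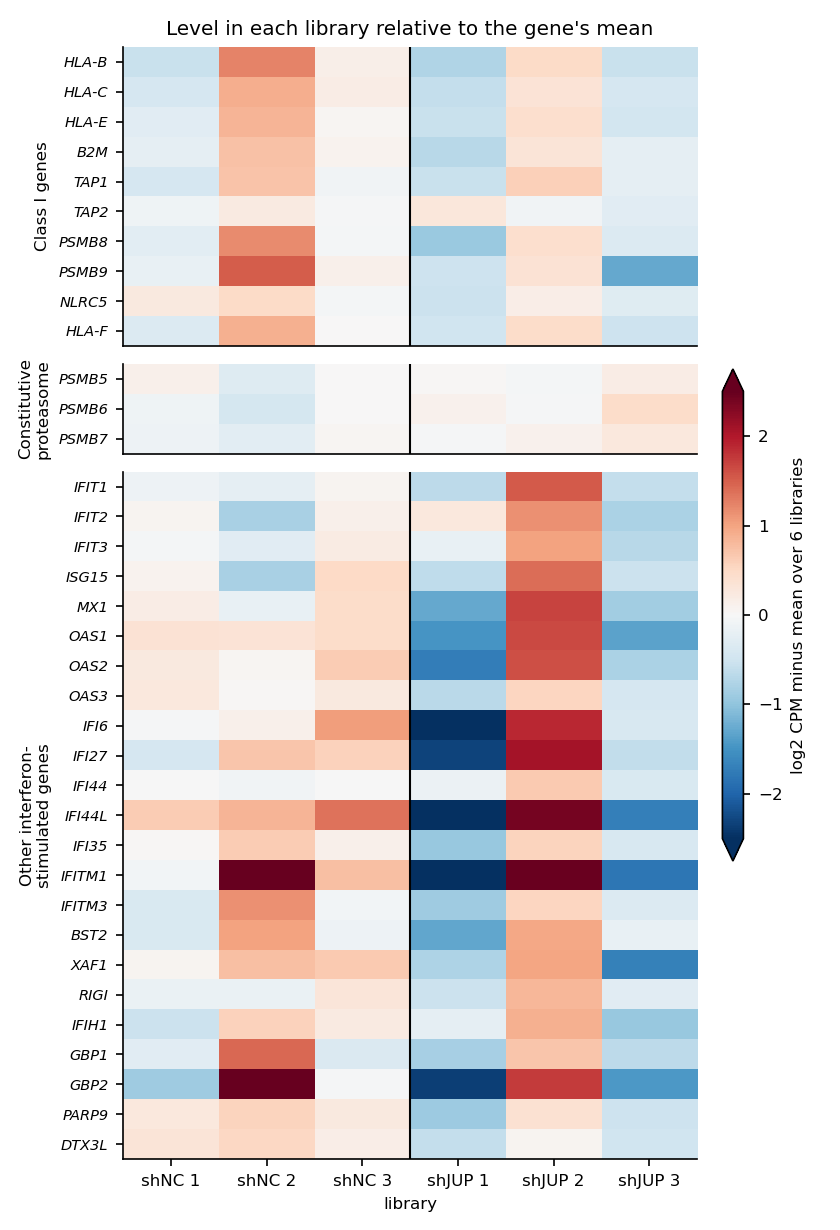
Log2 CPM of each gene minus its mean over the 6 libraries (colour, values beyond 2.5 drawn at the end colours) for class I genes, 3 constitutive proteasome subunits and 23 interferon-stimulated genes. Class I genes other than TAP2 are high in shNC 2 and shJUP 2, while IFIT1 and OAS2 are high in shJUP 2 only.

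Per kilobase of exon (union length in GENCODE 29), the mean control level was 148 CPM per kb for B2M, 76.8 for HLA-E, 75.7 for HLA-C and 57.3 for HLA-B. It was 10.2 for PSMB8, 5.83 for TAP2, 5.28 for TAP1, 2.29 for PSMB9 and 1.27 for NLRC5. In shJUP the order was the same, from 112 for B2M to 1.14 for PSMB9 and 0.937 for NLRC5. Within each library HLA-B lay below both HLA-E and HLA-C per kilobase, and PSMB8 lay above TAP1. HLA-E and HLA-C changed order between libraries, as did TAP2 with PSMB8 and with TAP1, and PSMB9 with NLRC5. Whether any neighbours in the order are separated was not tested. These union lengths count exons of all isoforms, so the order holds only at that resolution.

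The genes whose log2 CPM was most like the mean of the 9 over the 6 libraries, of 11354 with a mean of at least 5 CPM, were HES2, PEX5, BBOF1, C1R, WDR19, BCL6, CYB5R3 and G0S2 (Pearson r from 0.993 to 0.998). With 6 points and both number-2 libraries high, such values are a description only. Without those libraries r was 0.957 to 0.998 over 4 libraries. C1R, a complement protease, was at 1.90, 12.3 and 2.34 CPM in shJUP and 3.81, 30.9 and 5.6 CPM in shNC. BCL6, a transcriptional repressor, was at 6.47, 16.4 and 6.37 against 8.01, 26.8 and 10.3 CPM. Among the 9 genes, r with their own mean, of which each is a part, was 0.84 or above, except for TAP2 at 0.33. Without both number-2 libraries this r was 0.65 for NLRC5, 0.66 for TAP1 and -0.10 for TAP2. For the other members it was then 0.78 (PSMB8) to 0.99 (HLA-E).

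Of the markers of other cells that express class I, those of leukocytes were mostly near 0, and those of fibroblasts and endothelium less so. Of 11 leukocyte markers only CD68 reached 1 CPM, and CD3E, CD3D, MS4A1 and TYROBP had no count in any library. The summed leukocyte markers spanned 21.9 to 36.7 CPM in shJUP and 20.0 to 32.3 CPM in shNC. Of 6 endothelial markers 4 reached 1 CPM, with sums of 8.98 to 11.9 and 6.80 to 11.6 CPM. Of 7 fibroblast markers 4 did, with sums of 11.1 to 263 and 43.8 to 451 CPM, mostly COL1A1. Of these 4, LUM and DCN were high in both number-2 libraries, as most class I genes were, and COL1A1 and COL1A2 were not. COL1A1 was at 253, 32.3 and 8.76 CPM in shJUP and 38.3, 401 and 49.3 CPM in shNC. COL1A2 was at 7.98, 1.55 and 0.372 against 2.6, 26.1 and 3.97 CPM. Both collagens were highest in number 2 within shNC and in number 1 within shJUP. LUM was at 1.23, 6.67 and 0.903 CPM in shJUP and 1.66, 15.5 and 4.41 CPM in shNC, lower in all 3 pairs (log2 -1.29, SE 0.97, blocked DESeq2 adjusted p = 0.055). DCN was at 0.614, 5.87 and 0.743 against 0.553, 7.54 and 2.45 CPM. These 4 are given after their values were seen, and their part in the class I levels was not tested. Epithelial and carcinoma markers were present, with KRT8, KRT18 and PAX8 in every library, while EPCAM was at 1.25 to 4.62 CPM and MUC16 stayed under 1 CPM.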

How the data were processed

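RNA of 6 SKOV3 cultures (3 shJUP, 3 shNC) was sequenced after oligo(dT) enrichment on a DNBSEQ instrument, per the labels' protocols. The table that the authors deposited holds estimated counts for each Ensembl gene, without scaling. The labels' protocols speak of Cuffdiff values, which were not used here. The submitters' processing notes list STAR 2.7.9a, RSEM 1.3.3, edgeR 3.32.1 and DESeq2 1.26.0 but no roles. No source used here gives the genome build, the annotation or the strand setting. Of 60695 rows, 31 with text instead of gene IDs were dropped. Symbols were matched for 60463 of 60664 genes. Counts were rounded.

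The main test was edgeR 4.0.16 in R 4.3.3 (filterByExpr, TMM, quasi-likelihood, two-sided, Benjamini-Hochberg over 15867 genes, threshold 0.05), without a block. The SE was obtained by dividing the size of the log2 fold change by the root of F. DESeq2 1.42.0, limma-voom (limma 3.58.1), other scalings and filters, a replicate block and left-out libraries were alternatives. Same-number libraries deviated together from their group means (r = 0.14, 0.51 and 0.20 for numbers 1, 2 and 3), so the numbers were treated as pairs, although shJUP 3 also went with shNC 1 (r = 0.39) and shJUP 1 with shNC 3 (0.15). Number 2 had the highest r. Blocked values are printed where they change a call. Counting intervals are exact (Clopper-Pearson) and cover counting error only. The steps were tested on simulated counts.

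Named genes were JUP, the 9 members, 15 pathway genes taken whatever their values, up to 3 genes with the smallest p per list, any that DESeq2 called, and the 8 most alike. Some genes are given for their library pattern (IFIT1, OAS2), chosen after their values were seen. Further genes of that rule, and the alternative that summed paralogs, are not reported here. The members and lists were chosen with earlier results of these data known.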

Additional observations from a re-analysis of the deposited data

How the results depend on the processing

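No member passed the edgeR test under any scaling, filter or left-out library tried, and of 171 values of the 9 members under other settings 162 were below 0. The count of members called was 4 with the replicate block in DESeq2, 2 in that fit without both number-1 libraries and 0 elsewhere. The count of all genes called was 0 with edgeR, 1 with the replicate block in edgeR, 5 with no filter on low counts, 200 with DESeq2, 692 with DESeq2 and the block, 49 (edgeR) and 673 (DESeq2) once both number-2 libraries were left out, and 265, 263 and 175 with the blocked DESeq2 fit without number 1, 2 or 3 (these last added after the data were seen). With 1 library left out both counts stayed 0 to 0. The cause was not tested.

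Values that missed the threshold and turned direction with 1 library left out were, as log2 fold changes, HLA-B (-1.11 to 0.01), TAP1 (-0.53 to 0.27), TAP2 (-0.22 to 0.06), HLA-F (-0.79 to 0.04), PSMB5 (-0.01 to 0.20), CALR (-0.03 to 0.25), IRF1 (-0.14 to 0.26), RFX5 (-0.16 to 0.02), IFIT2 (-0.02 to 0.92), IFITM3 (-0.99 to 0.10), GBP2 (-3.44 to 0.78), HLA-DMA (-1.74 to 0.15) and CD74 (-0.32 to 0.0024). For HLA-B, TAP1 and HLA-F the upper end came without shNC 2. Without it PSMB8 (-0.01), HLA-E (-0.02), HLA-C (-0.08) and B2M (-0.08) were close to 0, and PSMB9 was at -0.30 and NLRC5 at -0.29. Ratio differences that turned were TAP1 per TAP2 (-0.43 to 0.34), HLA-B plus HLA-C per B2M (-0.25 to 0.05) and HLA-E per B2M (-0.08 to 0.12), the last also 0.0032 without both number-2 libraries, against -0.002 over all libraries and -0.002 with the replicate block.

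Without both number-2 libraries TAP2 was at 0.09 in edgeR and DESeq2 and 0.07 in the blocked DESeq2 fit, CALR at -0.02, -0.02 and -0.03, IRF1 at 0.25, 0.25 and 0.24 and IFIT2 at -0.25, -0.25 and -0.34. TAP2 was at 0.04 in the blocked DESeq2 fit without number 3, and CD74 at 0.13 in that without number 1. IRF1 was at 0.02 with library totals, limma-voom and the replicate block in both tools.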

Other observations

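The MHC class II genes, which present peptides to CD4+ T cells, were almost silent in these libraries. Of 11 genes, 2 were tested. HLA-DRA, HLA-DRB1, HLA-DPB1, HLA-DQA1 and HLA-DOA had no count in any of the 6 libraries, so their level was below that of 3 counts per library. CIITA, the class II transactivator, was at 1.32 ± 0.512 against 1.55 ± 0.388 CPM (shJUP against shNC, SD, n = 3 each). The class II chaperone genes were detected unevenly. HLA-DMA, which helps to load class II molecules, was at 0.558, 3.09 and 0.637 CPM in shJUP and 1.27, 3.45 and 1.31 CPM in shNC, high in both number-2 libraries like the class I genes. CD74, the invariant chain, stayed at 0.701 ± 0.0759 against 0.762 ± 0.2 CPM.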
